A study of Mus musculus with 24 samples.

Results

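The 10 genes described here are receptors, a ligand and feedback targets of epidermal growth factor (EGF) and fibroblast growth factor (FGF) signalling: Egfr, Fgfr1, Fgfr2, Fgfr3, Fgf2, Spry1, Spry2, Spry4, Dusp6 and Etv5. They were taken by gene symbol from the expression tables of mouse embryonic stem cells (mESC), with 17501 genes, and of neural progenitor cells (NPC), with 16024 genes, and belong to the 15572 genes found in both. All 10 passed the filter on low values in both cell types. The study sequenced total RNA from 24 libraries, 12 per cell type, to follow the CAG repeat of Htt, the gene of Huntington's disease. In both cell types 2 libraries came from each of 6 genotypes. These were a wild type (WT), a knockout of Htt (KO) and 4 heterozygous Hdh knock-in lines, named by their repeat length as Q20, Q50, Q92 and Q111. The length written as 92 in the titles is 89 in the growth protocol. The knock-in libraries also carry an Htt allele without the insert, since the lines are heterozygous; the origin of the WT and KO lines, the place of the knockout deletion and the number of clones behind each line are not given in the sources used here.

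Receptors of the EGF and FGF families are tyrosine kinases that signal through RAS and a kinase cascade that ends in ERK. ERK signalling raises transcripts of Sprouty genes and of Dusp6, whose products damp the pathway, and of Etv5, an ETS transcription factor, so these transcripts are widely used as readouts of its activity. Neural progenitors are commonly kept dividing by FGF and EGF, whereas in mESC FGF signalling through ERK favours leaving the pluripotent state. Per the protocols, the NPC were cultured on laminin in a medium with FGF and EGF in all 6 genotypes. The mESC were cultured with leukemia inhibitory factor on a feeder layer of irradiated mouse fibroblasts. The factors named for the medium were thus the same across genotypes and differed between cell types. The supply that reached the cells, with any ligand they make themselves, was not measured.

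Values are the deposited normalised CPM, read counts scaled to a common library size, which could be turned back into 58546211 to 81502284 reads per mESC library and 48525333 to 118038952 per NPC library. Counting error is small at this depth beside the spread between replicates for genes above a few CPM. Htt, the targeted gene, was at 100 and 94.9 CPM in the NPC KO libraries and 137 and 177 in NPC WT. In mESC the library labelled KO replicate 1 held 139 CPM, above the WT libraries at 124 and 113, and the library labelled KO replicate 2 held 68.5, so the level of Htt does not bear out the label of that first library. The NPC WT libraries stood apart from each other for several of the 10 genes: Dusp6 differed by 2.68 on the log2 scale, a gap reached by 1.11% of the genes tested. Pluripotency markers (7 of 10 in the NPC table, none of the 7 at 0 in a whole group) summed to 176 to 179 CPM in NPC Q20 and to between 4.82 and 26.6 in the other NPC groups, against 2182 to 4031 in mESC. Neural progenitor markers (9 of 10 in the NPC table) summed to 4087 to 9395 CPM in NPC, with Q20 lowest at 4087 to 4277, and 176 to 549 in mESC. Each knock-in length is a single line, so repeat length and line cannot be told apart.

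The sequences before the start of Egfr, Spry2 and Dusp6 are shown because these genes, 1 from each of the 3 functional classes of receptor, Sprouty and phosphatase, rose relative to Q20 or with repeat length in NPC, and each window holds no exon of its own gene. They are the 250 bases before the RefSeq start on GRCm38.p6, with capitals marking the ETS core CCGGAA (bound by factors of the Etv5 family, here read as TTCCGG on the other strand) and the GC box GGGCGG, which is read from the other strand as CCGCCC. The windows are chr11:16751953-16752202 on the plus strand for Egfr, chr14:105896820-105897069 on the minus strand for Spry2 and chr10:99262981-99263230 on the plus strand for Dusp6.
Egfr: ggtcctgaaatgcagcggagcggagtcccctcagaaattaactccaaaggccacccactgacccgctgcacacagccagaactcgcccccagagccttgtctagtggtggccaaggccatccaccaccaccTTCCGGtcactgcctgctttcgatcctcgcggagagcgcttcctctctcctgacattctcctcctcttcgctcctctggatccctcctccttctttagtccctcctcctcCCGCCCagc
Spry2: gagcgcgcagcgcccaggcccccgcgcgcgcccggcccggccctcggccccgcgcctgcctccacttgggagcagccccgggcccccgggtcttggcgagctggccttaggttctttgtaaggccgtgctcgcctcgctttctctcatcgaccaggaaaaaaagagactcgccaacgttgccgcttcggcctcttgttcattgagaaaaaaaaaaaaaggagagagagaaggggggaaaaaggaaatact
Dusp6: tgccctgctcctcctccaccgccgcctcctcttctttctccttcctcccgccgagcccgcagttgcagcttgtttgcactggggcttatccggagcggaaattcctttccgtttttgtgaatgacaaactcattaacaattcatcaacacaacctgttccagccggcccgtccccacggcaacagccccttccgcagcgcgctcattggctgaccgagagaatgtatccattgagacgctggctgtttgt
The Egfr window held 1 ETS core, starting 119 bases before the gene start, and 1 GC box, whereas the Spry2 and Dusp6 windows held neither. Of the 8 members with a window in the table, 1 held the ETS core and 5 the GC box. Over 32851 windows of the same length, both strands searched, 12.0% held the ETS core and 32.7% the GC box.

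In NPC WT the 10 genes spanned a wide range of levels. Per kilobase of exon, merged over all annotated transcripts of a gene, Etv5 was at 102 CPM, Egfr at 95.4 and Spry2 at 94.3, the highest of the set. Dusp6 was at 46.6, Fgfr3 at 20.0 and Fgfr1 at 11.9 CPM per kilobase. Fgfr2 at 1.66, Spry4 at 2.00, Fgf2 at 0.458 and Spry1 at 0.437 were the lowest. In mESC WT the highest was Etv5 as well, at 81.6 CPM per kilobase, followed by Dusp6 at 11.4 and Spry2 at 9.31, while Egfr was at 0.590, Fgfr2 at 0.760 and Fgfr3 at 0.666. The tables were scaled separately, so a level in one cell type was not tested against the other.

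Egfr, the EGF receptor (chromosome 11, 16752203 to 16918158, plus strand, 28 exons), was lowest in NPC Q20 and, by the mean, highest in NPC WT. It was at 1455 and 705 CPM in WT, 1051 and 485 in KO, and 313 and 329 in Q20. The longer knock-in lines held 545 and 573 in Q50, 528 and 480 in Q92, and 954 and 963 in Q111. The Q20 libraries lay below those of every other genotype, and Q92 lay below Q50. The wide range of KO overlapped Q92, Q50 and Q111, and Q111 lay within the range of WT.

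**Figure D1:**
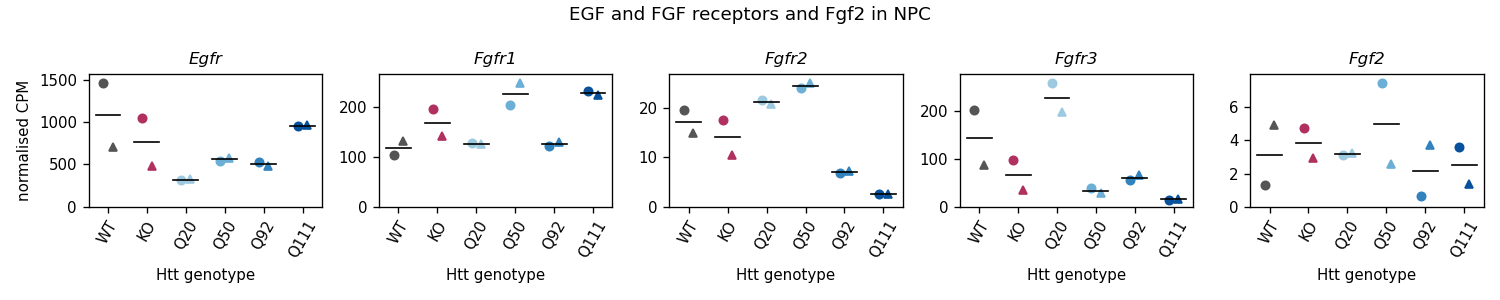
Levels of the receptors and of Fgf2 in NPC as normalised CPM (vertical axis, linear) by Htt genotype (horizontal axis), with circles for replicate 1, triangles for replicate 2 and a bar at the mean. Egfr is lowest in Q20 at 313 and 329 CPM, and Fgfr2 and Fgfr3 are lowest in Q111 at 2.60 and 2.52 and at 14.4 and 17.0 CPM.

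Fgfr1, an FGF receptor widely expressed in neural progenitors (chromosome 8, 25513654 to 25575718, plus strand), was high in Q50 and Q111. It was at 104 and 132 CPM in WT, 195 and 141 in KO, 127 and 126 in Q20, 204 and 246 in Q50, 121 and 129 in Q92, and 232 and 223 in Q111. The Q50 and Q111 libraries lay above those of all other genotypes, while WT, Q92 and Q20 overlapped.

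Fgfr2, another FGF receptor (chromosome 7, 130162451 to 133123350, minus strand), was lowest in Q111. It was at 19.4 and 14.8 CPM in WT, 17.6 and 10.5 in KO, 21.6 and 20.8 in Q20, 24.0 and 24.8 in Q50, 6.85 and 7.22 in Q92, and 2.60 and 2.52 in Q111. The Q111 libraries lay below Q92, and Q92 below the other 4 genotypes. The annotated span of Fgfr2 overlaps 69 other genes, 33 of them on the other strand, and whether the counting used strand is not given in the sources used here, so some of its reads could belong to neighbours.

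Fgfr3, an FGF receptor known from radial glia and astrocytes (chromosome 5, 33721674 to 33737068, plus strand), was at 201 and 86.4 CPM in WT, 96.6 and 35.9 in KO, and 256 and 197 in Q20. It was at 38.5 and 29.1 in Q50, 54.8 and 66.1 in Q92, and 14.4 and 17.0 in Q111. The Q111 libraries lay below all others, Q50 lay below Q92 and overlapped KO, and Q92, KO, WT and Q20 overlapped along the order of their means. Astrocyte markers (6 of 7 in the table, none at 0 in a whole group) summed to 2031 to 2302 CPM in NPC Q20, 1165 to 1461 in Q50, 346 to 350 in Q92 and 274 to 284 in Q111, with 1178 to 1974 in WT and 912 to 1374 in KO. Their part in the levels of Fgfr3 was not tested.

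Fgf2, an FGF ligand that the medium may also supply (chromosome 3, 37348346 to 37410108, plus strand), was low throughout. In NPC it ran from 0.627 to 7.41 CPM with a median of 3.17, and the ranges of neighbouring genotypes overlapped. Genes on the other strand, among them Nudt6 and Fgf2os, overlap it, so its values are uncertain in the same way as those of Fgfr2.

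The Sprouty genes, whose coding sequence lies in 1 exon in each of the 3, encode inhibitors of receptor tyrosine kinase signalling. Spry2 (chromosome 14, 105891947 to 105896819, minus strand) was the highest of the 3 per kilobase in NPC WT. It was at 133 and 261 CPM in WT, 244 and 64.9 in KO, 117 and 112 in Q20, 203 and 233 in Q50, 237 and 240 in Q92, and 235 and 237 in Q111. The 3 longer lines lay above Q20, and the replicates of WT and KO spanned most of the range of the others.

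Spry4 (chromosome 18, 38586247 to 38601415, minus strand) was at 1.28 and 17.7 CPM in NPC WT, 7.08 and 13.4 in KO, 21.3 and 3.12 in Q20, 19.1 and 20.0 in Q50, 35.0 and 35.1 in Q92, and 25.6 and 27.3 in Q111. Q92 was highest and Q111 next, without overlap, while WT, KO, Q20 and Q50 overlapped along the order of their means. Spry1 (chromosome 3, 37639947 to 37644598, plus strand) disagreed between replicates: it was at 0 and 2.54 CPM in WT, 3.53 and 23.2 in KO, 3.62 and 0.472 in Q20, 14.5 and 1.20 in Q50, 1.47 and 42.8 in Q92, and 1.65 and 108 in Q111. No genotype of NPC stood apart for Spry1, and the 0 in WT replicate 1 allows a level of up to 0.0526 CPM, the worth of 3 reads. The gap between the Q111 replicates, 5.36 on the log2 scale, was reached by 0.0909% of the genes tested.

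Dusp6, the phosphatase that inactivates ERK (chromosome 10, 99263231 to 99267489, plus strand), was at 38.6 and 254 CPM in NPC WT, 183 and 230 in KO, 58.1 and 57.2 in Q20, 330 and 258 in Q50, 272 and 297 in Q92, and 214 and 221 in Q111. The Q20 libraries and WT replicate 1 were low, and the other libraries lay between 183 and 330. Etv5 (chromosome 16, 22381309 to 22439719, minus strand) was at 238 and 602 CPM in WT, 673 and 725 in KO, 283 and 328 in Q20, 379 and 438 in Q50, 799 and 812 in Q92, and 425 and 435 in Q111. Q92 was highest and KO next, without overlap, and Q20 was lowest by its mean. The range of WT covered those of Q20, Q50 and Q111, and Q111 lay within Q50.

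**Figure D2:**
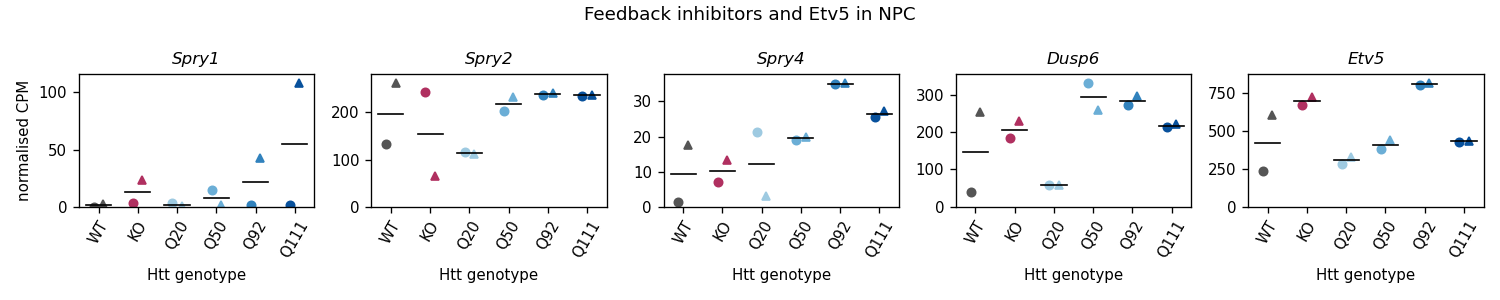
Levels of the Sprouty genes, Dusp6 and Etv5 in NPC as normalised CPM (vertical axis, linear) by Htt genotype, with circles for replicate 1, triangles for replicate 2 and a bar at the mean. Dusp6 is low in Q20 at 58.1 and 57.2 CPM and in 1 of the WT libraries at 38.6, and Spry1 differs between the Q111 replicates at 1.65 and 108 CPM.

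The first comparison asks what loss of Htt does. In NPC, 0 of the 10 genes passed the test between KO and WT, against 1.42% of all genes tested (limma on log2(CPM + 1), Benjamini-Hochberg adjusted p under 0.05), 3 had an unadjusted p under 0.05, and edgeR called 0. The closest were Fgfr1, with a difference of 0.50 (SE 0.18, adjusted p = 0.268), Etv5 with 0.88 (SE 0.35, adjusted p = 0.316) and Fgfr3 with -1.15 (SE 0.49, adjusted p = 0.368). Same-numbered KO and WT libraries deviated together in NPC, and this test did not pair them. In both pairs KO lay below WT for Egfr, Fgfr2 and Fgfr3 and above it for Fgfr1, Etv5 and Spry1. For the other members the pairs differed in direction. With the replicate number as a block no member passed, and 145 of all genes were called in place of 188. That block is a common replicate effect for all genotypes, whereas same-numbered NPC libraries of most other genotypes hardly deviated together. It therefore cannot stand in for pairing KO with WT, and a fit that pairs these groups alone was not run. The KO against WT result depends on the WT library. Without WT replicate 2, Dusp6 was higher in KO by 2.38 and Etv5 by 1.55. Without WT replicate 1, Dusp6 differed by -0.30. Leaving out 1 of 2 libraries assumes that the lone one varies like the other groups. In most contrasts it also shifted the number of calls over all genes. A call lost or gained that way is therefore not by itself a trait of these genes. In mESC, 0 of the 10 passed between the libraries labelled KO and WT, also without KO replicate 1, against 0.0144% of all genes, with 1 at an unadjusted p under 0.05 and 0 by edgeR. That gene was Fgfr1, at 35.0 and 40.9 CPM in WT and 71.2 and 61.7 in the libraries labelled KO, a difference of 0.79 (SE 0.25, adjusted p = 0.985).

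The second comparison sets the shortest knock-in against WT. In NPC, Egfr fell by 1.66 on the log2 scale in Q20 (SE 0.39, limma adjusted p = 0.0241), from a mean of 1080 ± 530 CPM (SD, n = 2) to 321 ± 11.9 (SD, n = 2), and was the only member called, against 14.5% of all genes. Without WT replicate 1 the fall was 1.13 (adjusted p = 0.071) and the call was lost, as it was without either Q20 library, with adjusted p up to 0.124, with quantile normalization (0.0528) and with both groups alone (0.132). Of the tested markers, 3 of 5 for pluripotency, 4 of 8 for neurons, 2 of 6 for astrocytes, 4 of 8 for the oligodendrocyte lineage and 5 of 9 for feeder fibroblasts rose in the same contrast, and 2, 0, 1 and 1 of the neuron, astrocyte, oligodendrocyte and fibroblast markers fell. Summed neuron markers were at 837 to 1013 CPM in NPC Q20 and 1447 to 1718 in WT, and oligodendrocyte lineage markers at 495 to 502 and 190 to 441. Of the 9 neural progenitor markers tested, 1 rose and 1 fell, 6 had an unadjusted p under 0.05, and the median difference was -0.66. Their sum was 4087 to 4277 CPM in NPC Q20 and 6736 to 7551 in WT. The part of these marker lists in the fall of Egfr was not tested. Dusp6 and Etv5 did not pass, at -0.78 (limma adjusted p = 0.545) and -0.31 (adjusted p = 0.648). Their estimates depended on the WT library. Without WT replicate 1 they were -2.12 and -0.98, and without WT replicate 2 they were 0.57 and 0.35, in the other direction.

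In mESC, Egfr was the only member called between Q20 and WT, against 0.323% of all genes, and 3 had an unadjusted p under 0.05. The others among these were Fgfr2, at 1.19 (SE 0.40, limma adjusted p = 0.264), and Fgfr1, at 0.72 (SE 0.25, adjusted p = 0.276). Egfr was at 7.61 and 5.75 CPM in WT, 10.1 and 5.6 in the libraries labelled KO, 34.6 and 33.6 in Q20, 17.4 and 14.5 in Q50, 11.1 and 18.9 in Q92, and 16.7 and 18.6 in Q111. The knock-in libraries lay above those labelled WT and KO, and Q20 above the longer lines. The rise in Q20 was 2.20 (SE 0.34, limma adjusted p = 0.0481), and it lost the call without any one of the 4 libraries of Q20 and WT, with estimates from 2.03 to 2.38 and adjusted p from 0.170 to 0.217. It was also lost by edgeR (0.0712), with no filter (0.0519) and with both groups alone (0.376). With the replicate number as a block the adjusted p was 0.0108, and 1475 genes were called in place of 45. Feeder fibroblast markers (8 of 10 in the mESC table, none at 0 in a whole group) summed to 22.0 to 33.8 CPM in WT, 21.2 to 26.7 in the libraries labelled KO and 56.8 to 95.7 in the knock-in groups, and 2 of the 8 tested rose in Q20. These 2 were the collagen genes Col1a1 by 2.87 and Col1a2 by 3.66. Neural progenitor markers (9 of 10 in the table) summed to 176 to 191 CPM in mESC WT, with Olig2 at 0, and to 410 to 548 in Q20, though 0 of the 7 tested passed. Pluripotency markers (all 10 in the table) summed to 3715 to 4031 CPM in WT and 2182 to 2946 in Q20, and 0 of the 10 passed, with a median difference of -0.47 and none above 0. The part of these marker lists in the level of Egfr was not tested, and in bulk RNA a change in the share of a cell type and in RNA per cell cannot be told apart.

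The third set of comparisons asks what longer repeats do relative to Q20, whose libraries all 3 contrasts share. Between NPC Q50 and Q20, 3 of the 10 genes passed, against 18.8% of all genes. Fgfr3 fell by 2.71 (SE 0.49, limma adjusted p = 0.00631), Fgfr1 rose by 0.82 (SE 0.18, adjusted p = 0.0151) and Dusp6 rose by 2.32 (SE 0.68, adjusted p = 0.0466). The Dusp6 call was lost without any one of the 4 libraries (adjusted p 0.132 to 0.194), by edgeR (0.0502) and over genes with a mean CPM of at least 5 (0.0603), that of Fgfr1 without Q50 replicate 2 or either Q20 library (up to 0.104) and that of Fgfr3 without Q20 replicate 1 (0.0517). Feeder fibroblast markers (all 10 in the NPC table, none at 0 in both libraries of these groups) summed to 303 to 368 CPM in NPC Q20 and 1015 to 1076 in Q50, and 6 of 9 tested rose. Of the other markers, 6 of 8 for neurons, 4 of 8 for the oligodendrocyte lineage, 3 of 5 for pluripotency and 1 of 6 for astrocytes fell, while 2, 1, 0 and 0 of them rose. Of 9 neural progenitor markers, 2 rose and 1 fell, and their sum was 9208 to 9395 CPM in Q50. The part of these markers in these changes was not tested.

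Between NPC Q92 and Q20, 4 of the 10 passed, against 25.8% of all genes. Fgfr2 fell by 1.46 (SE 0.25, limma adjusted p = 0.0035) and Fgfr3 by 1.89 (SE 0.49, adjusted p = 0.0246), while Dusp6 rose by 2.28 (SE 0.68, adjusted p = 0.0398) and Etv5 by 1.40 (SE 0.35, adjusted p = 0.0203). The call of Fgfr2 was kept without each library in turn (adjusted p 0.023 to 0.030), and those of Fgfr3, Dusp6 and Etv5 were lost without any one of the 4 libraries (adjusted p 0.0691 to 0.143). In the same contrast all 6 tested astrocyte markers fell, as did 6 of 8 for the oligodendrocyte lineage, 7 of 9 for feeder fibroblasts, 5 of 8 for neurons and 3 of 5 for pluripotency, while 1 of each of the last 4 lists rose. Oligodendrocyte lineage markers summed to 82.4 to 83.1 CPM in Q92, neuron markers to 1021 to 1154 and feeder fibroblast markers, with Fap at 0, to 188 to 194. Of 9 neural progenitor markers, 2 rose and 3 fell, and their sum was 6497 to 6710 CPM in Q92. The part of these markers in these changes was not tested.

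Between NPC Q111 and Q20, 4 of the 10 passed, against 28.3% of all genes. Fgfr3 fell by 3.76 (SE 0.49, limma adjusted p = 0.00104), from 227 ± 41.6 to 15.7 ± 1.88 CPM (SD, n = 2 each), and Fgfr2 fell by 2.64 (SE 0.25, adjusted p = 0.000172), from 21.2 ± 0.574 to 2.56 ± 0.0537 CPM. Both calls were kept without each library in turn. Egfr rose by 1.58 (SE 0.39, adjusted p = 0.0195) and Fgfr1 by 0.84 (SE 0.18, adjusted p = 0.0114), and these calls were lost without any one of the 4 libraries (adjusted p 0.0575 to 0.0967), that of Egfr also with quantile normalization, at 1.27 (0.0528). Dusp6, at 1.90 (SE 0.68, adjusted p = 0.0675), Etv5, at 0.50 (SE 0.35, adjusted p = 0.306), and Spry2, at 1.04 (SE 0.53, adjusted p = 0.172), did not pass. With both groups alone each of them passed (limma adjusted p 0.00176, 0.0173 and 0.00189). That setting called 6712 of all genes in place of 3743. In the same contrast 5 of 6 astrocyte markers fell, as did 7 of 9 for feeder fibroblasts, 3 of 5 for pluripotency, 4 of 8 for neurons and 3 of 8 for the oligodendrocyte lineage, while 1 of each of the last 4 lists rose. Feeder fibroblast markers summed to 126 to 131 CPM in Q111, with Fap at 0, and oligodendrocyte lineage markers to 297 to 303. Of 9 neural progenitor markers, 2 rose and 1 fell, and their sum was 5473 to 6231 CPM in Q111. The part of these markers in these changes was not tested. The median difference from Q20 over the 10 genes was 0.81 in Q50, 0.85 in Q92 and 0.94 in Q111, beside -0.002, 0.06 and 0.03 over all genes tested, and these medians share the Q20 libraries.

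The choice of Q20 as reference mattered. Against WT the median differences over the 10 genes were 0.53 in Q50, 0.22 in Q92 and 0.26 in Q111. Against WT, Egfr in NPC Q111 differed by -0.08 (adjusted p = 0.905), Q50 by -0.86 (adjusted p = 0.273) and Q92 by -1.01 (adjusted p = 0.145). Fgfr1 in Q50, at 0.93 (adjusted p = 0.0197), and in Q111, at 0.95 (adjusted p = 0.0121), remained called against WT, as did Fgfr2 in Q92 and Q111 and Fgfr3 in Q111, whereas Fgfr3 in Q50, at -1.94 (adjusted p = 0.0564), and in Q92, at -1.12 (adjusted p = 0.193), did not. Dusp6 also did not pass against WT, at 1.54 in Q50 (adjusted p = 0.256) and 1.51 in Q92 (adjusted p = 0.201), and neither did Etv5 in Q92, at 1.09 (adjusted p = 0.094).

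In mESC no member passed between a longer line and Q20. Of the 10, 0 passed between Q50 and Q20 against 0.00719% of all genes (2 at an unadjusted p under 0.05, edgeR 0), 0 between Q92 and Q20 against 0.00719% (2 and 0), and 0 between Q111 and Q20 against 0.0% (1 and 0). Dusp6 was at 28.8 and 42.6 CPM in mESC WT, 31.7 and 55.7 in the libraries labelled KO, 33.7 and 32.8 in Q20, 72.2 and 88 in Q50, 49.1 and 69.7 in Q92, and 29.4 and 30.1 in Q111. The Q50 libraries lay above those of the other genotypes, and the Q111 libraries lay below Q20 and within the range of WT. The difference of Dusp6 between Q50 and Q20 was 1.24 (SE 0.32, adjusted p = 0.474), and it passed with the replicate number as a block, at the same estimate with an adjusted p of 0.0488. That block raised the genes called from 1 to 137 in Q50, from 1 to 64 in Q92 and from 0 to 8 in Q111, all against Q20, and from 2 to 16 between KO and WT, with no member among those of the last 3.

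Fgfr1 in mESC was lowest in WT, as given above, and at 52.2 and 76.1 CPM in Q20, 71.6 and 80.7 in Q50, 65.0 and 65.8 in Q92, and 46.4 and 66.4 in Q111. Etv5 was the most abundant member per kilobase and was at 344 and 326 CPM in WT, 299 and 414 in the libraries labelled KO, 241 and 388 in Q20, 214 and 402 in Q50, 259 and 381 in Q92, and 450 and 527 in Q111. The Q111 libraries lay above the rest, which overlapped. The remaining mESC genes were low or disagreed between replicates. Spry4 ran from 0.311 to 90.1 CPM, and these extremes were the Q20 replicates, a gap of 6.12 on the log2 scale that 0.0862% of genes reached. Spry2 ran from 11.4 to 138 CPM, Spry1 from 0 to 20.2, Fgfr2 from 5.01 to 23.1, Fgfr3 from 2.47 to 8.16 and Fgf2 from 0 to 3.25. The 0 of Fgf2 in the library labelled KO replicate 1 and in Q20 replicate 1 allows up to 0.0412 and 0.0445 CPM, and that of Spry1 in Q50 replicate 2 up to 0.0387.

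**Figure D3:**
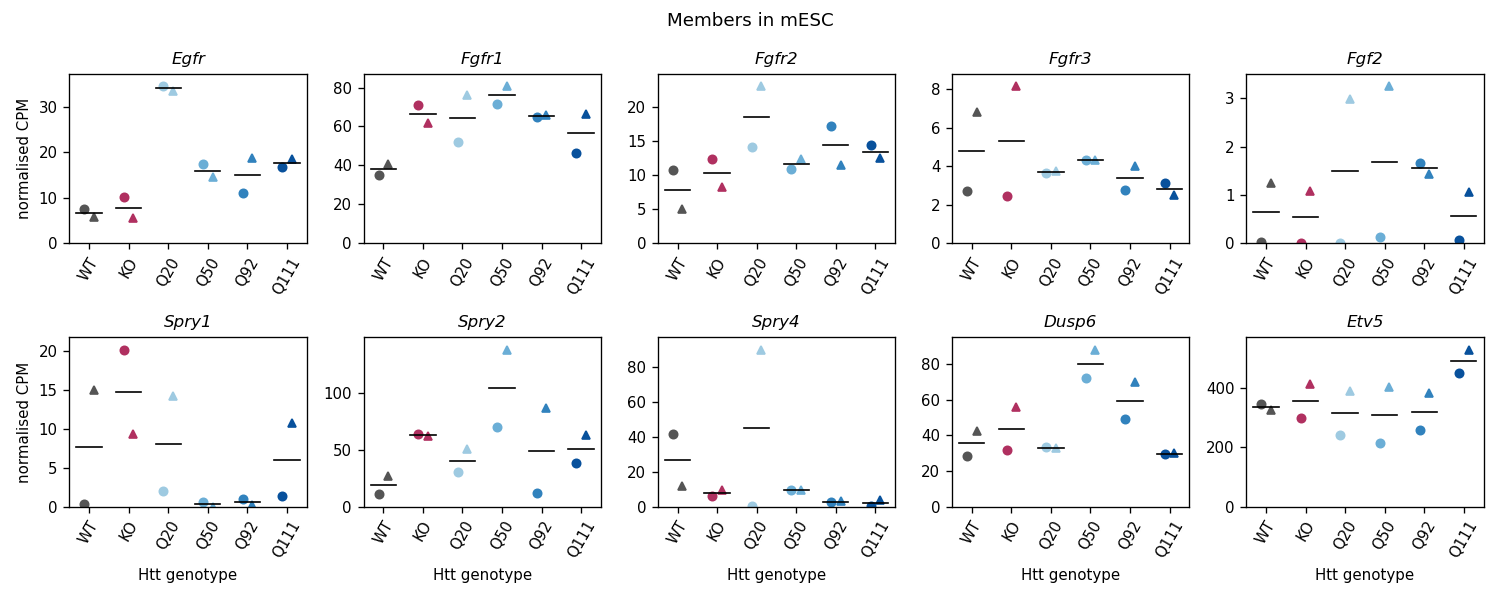
Levels of the 10 genes in mESC as normalised CPM (vertical axis, linear, its own scale per gene) by Htt genotype, with circles for replicate 1, triangles for replicate 2 and a bar at the mean. Egfr is highest in Q20 at 34.6 and 33.6 CPM, and the Q20 replicates of Spry4 stand at 0.311 and 90.1 CPM.

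The study's title asks for a relation with repeat length, and the slope over the 8 knock-in libraries of a cell type gives it, stated here as the log2 change over the 91 repeats from 20 to 111. In NPC, 4 of the 10 genes had a slope past the test, against 22.0% of all genes. Fgfr2 fell by 2.72 (SE 0.44, limma adjusted p = 0.00499) and Fgfr3 by 2.81 (SE 0.76, adjusted p = 0.0325), while Egfr rose by 1.23 (SE 0.28, adjusted p = 0.0181) and Spry2 by 0.95 (SE 0.23, adjusted p = 0.0232). Dusp6, at 1.67 (SE 0.63, adjusted p = 0.0891), Spry4, at 1.62 (SE 0.63, adjusted p = 0.0995), and Etv5, at 0.84 (SE 0.37, adjusted p = 0.132), did not pass. The slopes of Fgfr1, Fgf2 and Spry1 were 0.37, -0.64 and 2.55, with adjusted p of 0.509, 0.457 and 0.307. The median slope of the 10 was 0.90, beside 0.04 over all genes tested.

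The slopes of Spry2, Fgfr3 and Dusp6 rest in large part on the Q20 line. Leaving out that line also narrows the range of lengths, and 1880 of all genes were called in place of 2909. Without it, Spry2 had a slope of 0.20 (adjusted p = 0.454), Egfr 0.91 (adjusted p = 0.26), Fgfr3 -1.01 (adjusted p = 0.575) and Dusp6 -0.54 (adjusted p = 0.231), and Fgfr2 alone of the 10 still passed, at -4.12. With 1 mean per line, which leaves 4 points, 0 of the 10 passed, with adjusted p from 0.29 to 0.35 for the called genes. In that setting 0 of all 13206 genes passed, so it cannot set the members apart from other genes. The call of Fgfr2 was kept without each library in turn, those of Egfr and Fgfr3 were lost without any one library of Q20 or Q111 (adjusted p up to 0.0799 and 0.135), and that of Spry2 without either Q20 library (up to 0.103). With quantile normalization the calls of Egfr, at 0.90 (adjusted p = 0.0674), and Spry2, at 0.69 (0.0693), were lost. With the replicate number as a block that of Fgfr3 was lost (limma adjusted p = 0.0552). With the log2 of the length in place of the length, Dusp6 passed, at 2.02 (limma adjusted p = 0.0214). That setting called 2949 of all genes in place of 2909. Without Q50 replicate 1 the slope of Dusp6 was 1.91.

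In mESC, 0 of the 10 slopes passed, against 0.0% of all genes, with 1 at an unadjusted p under 0.05 and 0 by edgeR. That gene was Egfr, whose slope was -0.86 (SE 0.37, unadjusted p = 0.0439). The difference of slopes between NPC and mESC was tested over the 16 knock-in libraries, and 2 of the 10 passed, against 4.86% of all genes. Egfr was 2.09 higher in NPC (SE 0.46, limma adjusted p = 0.0196) and Fgfr2 lower, by a difference of -2.46 (SE 0.55, adjusted p = 0.0206). Fgfr3 also differed by -2.46, with SE 0.83 and adjusted p = 0.105, and it passed without NPC Q50 replicate 2, at -2.73 (adjusted p = 0.0374). Spry4 differed by 3.82 (adjusted p = 0.201) and passed without mESC Q20 replicate 1, at 6.08 (adjusted p = 0.00735). The call of Egfr was lost without any one of the 4 Q20 libraries (adjusted p up to 0.0617) and that of Fgfr2 without mESC Q20 replicate 1, mESC Q111 replicate 1 or either NPC Q111 library (up to 0.0512).

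**Figure D4:**
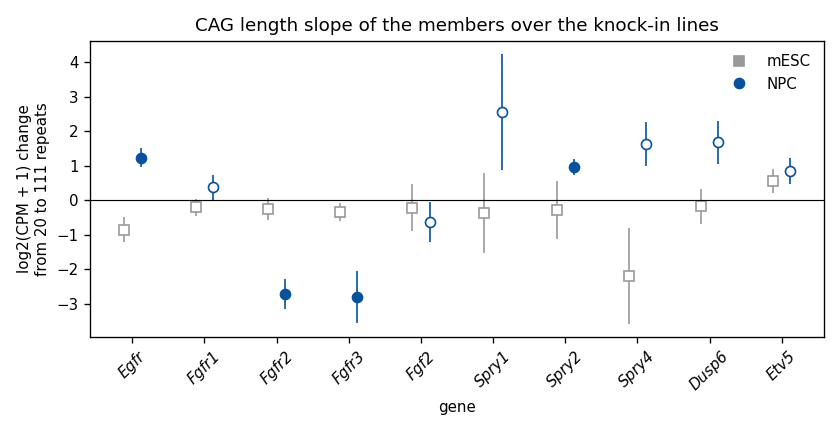
Slope of each gene over the knock-in lines as the change of log2(CPM + 1) over 91 repeats (vertical axis) by gene (horizontal axis), with grey squares for mESC, blue circles for NPC, bars of 1 standard error either side and filled points where the limma adjusted p is under 0.05. In NPC, Fgfr2 at -2.72 and Fgfr3 at -2.81 lie below 0 and Egfr at 1.23 and Spry2 at 0.95 lie above it, and no mESC point is filled.

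Across the 12 NPC libraries the feedback genes Dusp6 and Etv5 varied together (Pearson r = 0.754 of log2(CPM + 1)), as did Dusp6 and Spry4 (r = 0.755) and Spry4 and Etv5 (r = 0.536). Fgfr2 and Fgfr3 also varied together (r = 0.658), and Fgfr3 ran opposite to Dusp6 (r = -0.759), Fgfr1 (r = -0.761) and Spry4 (r = -0.599). These are descriptions over 12 libraries that share 6 genotypes, of which 2 libraries each are replicates. In the 12 mESC libraries the pairs looked different, with r = -0.196 for Dusp6 and Etv5, -0.624 for Fgfr2 and Fgfr3, 0.729 for Egfr and Fgfr2, and 0.696 for Fgfr1 and Spry2. The difference between cell types was not tested.

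**Figure D5:**
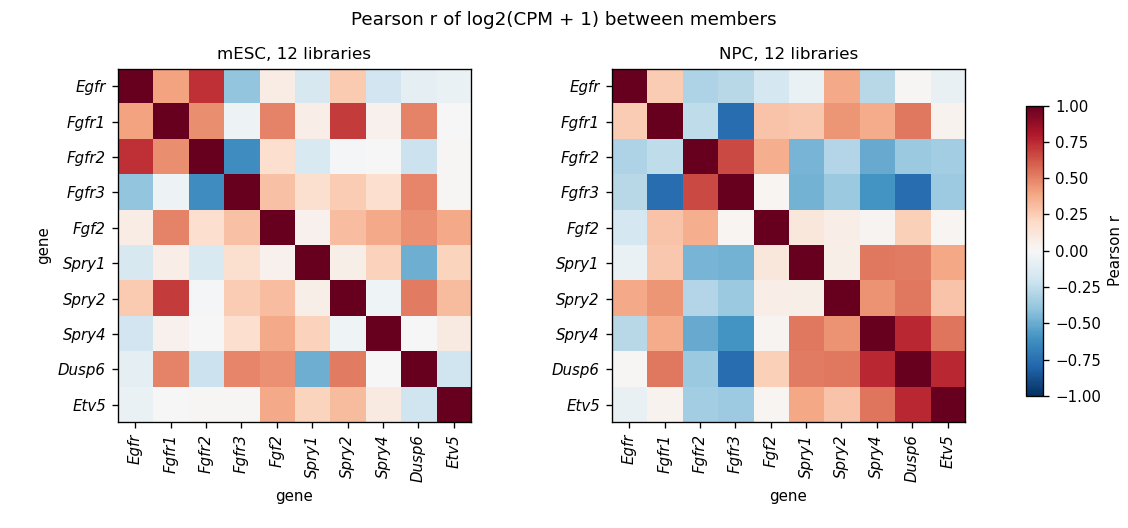
Pearson r of log2(CPM + 1) between each pair of the 10 genes over the 12 mESC libraries (left) and the 12 NPC libraries (right), from blue at -1 to red at 1. In NPC, Spry4, Dusp6 and Etv5 form a red block with r from 0.536 to 0.755, and Fgfr3 is blue against Fgfr1, Spry4 and Dusp6.

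The gene most like each member over the 12 NPC libraries, by Pearson r of log2(CPM + 1) among tested genes, was Wdr45 for Fgfr3 (r = 0.977), Fbn2 for Dusp6 (0.973), Abat for Fgfr2 (0.966) and Ccdc9 for Etv5 (0.966). It was Rhoj for Fgfr1 (0.943), Fadd for Spry2 (0.914), Arhgap21 for Egfr (0.911), Plk3 for Spry4 (0.896), Lrrc24 for Fgf2 (0.864) and Sgpp2 for Spry1 (0.837).

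The rest of the pathway was followed through 103 genes in 6 lists, of which 92 were tested in NPC and 95 in mESC. In mESC 0 of the 95 passed in any of the 5 contrasts or the slope by limma, with 9 at an unadjusted p under 0.05 between Q20 and WT and 0 to 6 in the others, and edgeR called 0 in each. With the replicate number as a block, 8 of the 95 passed between mESC Q20 and WT and 1 between Q50 and Q20. Over all 13916 genes tested, that block called 1475 and 137 in these contrasts. In NPC 2 of 92 passed between KO and WT, 1 in each direction, which is 2.17% of the list against 1.42% of all genes. Between Q20 and WT 16 passed, of which 14 rose, or 17.4% against 14.5%. Against Q20, 17 passed in Q50 (5 higher, 12 lower), or 18.5% against 18.8% of all genes, 25 in Q92 (12 and 13), or 27.2% against 25.8%, and 33 in Q111 (12 and 21), or 35.9% against 28.3%. A slope past the test was found for 21 (10 rising, 11 falling), or 22.8% against 22.0%, so apart from Q111 the shares of the list lay near those of all genes. The median slope of the 92 was -0.03, beside 0.04 for all genes.

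Dusp4, a phosphatase of the same family as Dusp6, was at 1.79 and 5.78 CPM in NPC WT and 18.0 and 28.9 in KO, with no overlap. It rose in KO by 2.45 (SE 0.45, limma adjusted p = 0.0437) and in Q20 against WT by 2.40 (adjusted p = 0.00824). The rise in KO lost its call without either KO library or WT replicate 1 (adjusted p up to 0.147), over genes with a mean CPM of at least 5 (0.0601), by edgeR (0.0805) and with both groups alone (0.751). That in Q20 lost it without Q20 replicate 1 (0.0723) and with both groups alone (0.131). The other gene called in KO was Spry3, the remaining Sprouty gene, which fell by 1.33 (SE 0.20, adjusted p = 0.0244) and is named here after its value was seen.

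Among the 19 tested co-receptors and heparan sulfate modifiers, which set how FGFs bind their receptors, 2 rose with repeat length and 2 fell, or 21.1% against 22.0% of all genes. Sulf1, a sulfatase that trims heparan sulfate, was at a mean of 90.3 CPM in NPC Q20, 29.6 in Q50, 1.12 in Q92 and 0.901 in Q111, against 0.676 in WT. It rose by 5.77 in Q20 against WT (SE 0.18, limma adjusted p = 7.23e-07) and fell by 6.11 with repeat length (SE 0.44, adjusted p = 0.000541). Gpc3, a glypican, rose by 3.79 in Q20 against WT (SE 0.22, adjusted p = 1.38e-05), from a mean of 2.90 to 52.9 CPM. Hs6st2, a sulfotransferase of heparan sulfate, rose by 1.85 with repeat length (SE 0.31, adjusted p = 0.00548).

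Of 14 tested ligands, 1 rose with repeat length and 3 fell, or 28.6% against 22.0% of all genes. The one that rose was Areg, which encodes the EGF receptor ligand amphiregulin, by 4.43 (SE 0.51, limma adjusted p = 0.00148), with means of 0.229 CPM in Q20, 4.52 in Q50, 8.42 in Q92 and 38.8 in Q111. Those that fell were Tgfa, another EGF receptor ligand, by 1.54, Fgf15 by 2.04 and Fgf11 by 2.31, named here after their values were seen, as is Erbb4. Of the 5 other receptors tested, Erbb4 fell by 1.87 (SE 0.21, adjusted p = 0.00141) and the rest did not pass.

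Of 17 tested ERK target genes outside the 10, 3 rose with repeat length and 1 fell, or 23.5% against 22.0% of all genes, with a median slope of 0.67. Ccnd1, the cyclin D1 gene, was at 63.4 and 1167 CPM in NPC WT, 130 and 140 in Q20, 1677 and 2030 in Q50, 1692 and 1808 in Q92, and 2298 and 2128 in Q111. Q20 and WT replicate 1 were low, as for Dusp6, and the longer lines lay above all other libraries. Ccnd1 rose by 3.44 (SE 0.87, limma adjusted p = 0.027), a call lost without any one library of Q20 or Q111 (adjusted p up to 0.116) and by edgeR (0.132). Without the Q20 line its slope was 0.30 (adjusted p = 0.554). Epha4, which encodes an ephrin receptor, fell by 2.68 (SE 0.56, adjusted p = 0.0129; without Q20 replicate 2 the adjusted p was 0.0503 and without the Q20 line 0.12).

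Of 17 other feedback inhibitors tested, 2 rose and 2 fell with repeat length, or 23.5% against 22.0% of all genes. Il17rd, also called Sef, an inhibitor of FGF signalling, fell by 2.39 (SE 0.47, limma adjusted p = 0.0106), from a mean of 77.2 CPM in Q20 and 81.1 in Q50 to 40.5 in Q92 and 12.1 in Q111. Of the 20 adaptors and members of the RAS to ERK cascade tested, 2 rose and 2 fell with repeat length, or 20.0%. In Q20 against WT, Rasa1, a RAS inactivator of the feedback list, fell by 0.52 (SE 0.13, limma adjusted p = 0.036). The call was lost without any one of the 4 libraries of that comparison (adjusted p 0.0549 to 0.214) and in 4 other settings, edgeR among them (0.0519).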

How the data were processed

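Per the submitters' processing notes, base calling used CASAVA 1.8 and alignment STAR on GRCm38.p6; the counting tool, its use of strand, the annotation and the gene filter are not given in the sources used here. The deposited values are a normalised signal that the authors named CPM, with 1 table per cell type scaled separately. Column totals ran from 900342 to 1080734, and 100% of values were whole multiples of 1 step per library (within 0.01 reads), which gave back the reads. Depth is the sum of these reads, and the limit for a value of 0 is 3 reads.

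Values were tested as log2(CPM + 1) with limma 3.58.1 in R 4.3.3 (variance trend, two-sided, Benjamini-Hochberg adjusted p under 0.05) over the genes that reached 1 CPM in 2 or more libraries of the cell type: 13916 in mESC, 13206 in NPC and 12321 in both. Differences are on this scale, which understates changes of low genes. The 6 genotypes shared 1 estimate of spread. The quasi-likelihood test of edgeR 4.0.16 on the recovered reads was an alternative, as were another pseudocount, filters, scalings, references and leaving out libraries. Both tests were tried on simulated data.

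The series text calls the 2 libraries of a group biological samples but does not say that they are separate cultures, so p-values measure the spread between these libraries. Same-numbered mESC libraries deviated together (r from 0.25 to 0.55 over genes in all 15 pairs of genotypes). In NPC those of KO and WT did (r = 0.47), but only 3 of 15 pairs were over 0.1 (lowest -0.05). The main fits used no pairing in either cell type. A fit with the replicate number as a block was an alternative. Its value stands beside a result where it changes a member's call. In mESC that block raised the genes called between Q20 and WT from 45 to 1475.

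Named genes are the 10 members, Htt, the pathway genes with the largest called changes (up to 3 per direction, where the higher group averaged 5 CPM or more) in NPC KO and Q20 against WT and the NPC slope, and the gene most like each member. A gene that this rule names is not reported here. The members and lists were chosen with earlier results of these data known. The pathway lists were ligands, other receptors, co-receptors and heparan sulfate modifiers, adaptors and the RAS to ERK cascade, other feedback inhibitors and other ERK target genes; marker lists were given as summed levels and not tested as lists. Gene positions and exons are those of GENCODE M21 on GRCm38.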

Additional observations from a re-analysis of the deposited data

Results flagged for a closer look

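Several of the 10 genes had estimates of opposite sign in the cell types under the same contrast, with the libraries of each group not overlapping. The contrasts were picked by this rule, and how many of all genes meet it was not counted. With 2 libraries per group such separation can also arise without an effect, so the list does not set these genes apart from others. These differences between cell types were not tested, except for the slopes, and most of the estimates did not pass in either cell type. Egfr in Q20 against WT rose by 2.20 in mESC (limma adjusted p = 0.0481) and had an estimate of -1.66 in NPC (adjusted p = 0.0241), an NPC minus mESC difference of -3.86. Spry2 in that contrast was at 1.10 (adjusted p = 0.654) and -0.70 (0.481), a difference of -1.80. Against Q20, Egfr was at -1.05 in mESC (adjusted p = 0.620) and 0.80 in NPC (0.204) in Q50, a difference of 1.85, at -1.18 (0.670) and 0.65 (0.246) in Q92, a difference of 1.83, and at -0.91 (0.999) and 1.58 (0.0195) in Q111, a difference of 2.49. In Q50 against Q20, Fgfr2 was at -0.60 (0.941) and 0.20 (0.645), a difference of 0.79, and Fgfr3 at 0.18 (0.999) and -2.71 (0.00631), a difference of -2.89. In Q111 against Q20, Dusp6 was at -0.16 (0.999) and 1.90 (0.0675), a difference of 2.05. The slope over repeat length differed between the cell types for Egfr, by 2.09 (-0.86 in mESC and 1.23 in NPC), and for Fgfr2, by -2.46 (-0.26 and -2.72), both past the test of the interaction in limma. The contrasts against Q20 share its libraries, so the entries for Egfr are not independent of each other.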

How the results depend on the processing

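The counts that follow are members called of 10, beside those given above. With no filter, with both groups alone or by edgeR, mESC Q20 against WT gave 0. With the replicate number as a block, mESC Q50 against Q20 gave 1 (Dusp6), and NPC kept 3 of 4 slopes (Fgfr3 lost, at -2.81 with adjusted p = 0.0552). Over all genes that block called 2015 NPC slopes in place of 2909. With quantile normalization NPC Q20 against WT gave 0, the NPC slope 2 and NPC Q111 against Q20 3, without Egfr. It called 1892, 2360 and 3576 of the 13206 genes in these. With both groups alone NPC Q20 against WT gave 0, Q50 against Q20 5 and Q111 against Q20 7. That setting called 476, 3927 and 6712 of the 13206 genes there, in place of 1920, 2478 and 3743. In Q92 against Q20 it added Egfr and Spry2, with 6160 genes called in place of 3407. With WT as the reference Q50 gave 1 and Q92 1, against 6.62% and 8.66% of all genes. In that setting Egfr differed by -0.0796 in Q111, -0.86 in Q50 and -1.01 in Q92, the reverse of its difference from Q20. With 1 mean per line the NPC slope and the slope difference gave 0, as they did over all 13206 and 12321 genes. Without the Q20 line the NPC slope gave 1, with 1880 of the 13206 genes called, and that of Dusp6 turned to -0.54. Leaving out 1 library at a time leaves a lone library in its group, and the calls over all genes shifted as well in most of these fits. Member counts under it are therefore not given. Over these fits in NPC, Dusp6 ran from -0.30 to 2.38 in KO against WT and from -2.12 to 0.57 in Q20 against WT. Etv5 ran from -0.98 to 0.35 in the latter. These ends were set by the WT library left out. The cause of these shifts was not tested, except that leaving out libraries or whole lines, or taking means, leaves fewer values. Taking 89 for 92 left the counts of slopes at 0 in mESC and 4 in NPC. Spry1, Spry4 and Fgf2, with low values or replicates far apart, are limited by that spread.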
